A study of Drosophila melanogaster with 24 samples.

Results

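The genes described here are CG42828, CG31244, BG642312, CG31776, CG32110, CG17230 and Drep1, whose change with over-expression of Hr96 differed between female and male fruit flies. They are 7 of the 11982 genes that the array names, and each is read by 1 probe set that the platform annotation gives to that gene alone, out of 18769 probe sets tested. They were chosen on the log2 change of over-expression against its control in females and in males, so every value of that contrast is given as a description with no test. In the limma fit over all arrays 31 probe sets (0.165%) had a called difference between the female and the male change. Of these 27 name 1 gene, namely the 7 genes above and 20 others. The calls of the 7 follow from how they were chosen, so nothing is read from that count.

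Total RNA of whole adult flies, 0 to 3 days old, was hybridised to 24 Affymetrix arrays in 8 groups of 3, with 1 array for each of 3 batches of diet. All flies were reared at the same temperature and carried w and a GAL4 driver. Over-expression flies were w;Act5C-GAL4/UAS:OE_Dhr96OE_35 and their control was w;Act5C-GAL4/+, while flies labelled knockdown were w;arm-GAL4/+;UAS:RNAi_Dhr96Hp_3/+ and their control was w;arm-GAL4/+. Each genotype was sampled in both sexes. GAL4 is a yeast activator that switches on a transgene behind a UAS sequence, and the Act5C and arm promoters are known to be active in most cells, so the manipulations were not limited to 1 tissue. Each manipulation rests on 1 transgenic line (line 35 and line 3), and the controls lack the UAS transgene. Because whole animals were used, fewer cells of a type and less RNA per cell cannot be told apart.

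Hr96 encodes DHR96, a nuclear receptor known to act in detoxification and in the handling of triglycerides and sterols. Male and female flies differ widely in their transcripts, because testis, accessory gland and ovary are large and each expresses genes that few other tissues use, and the fat body also differs between the sexes. A gene used in an organ of 1 sex can show a change only in that sex. Drep1 encodes the fly relative of the inhibitor and chaperone of caspase-activated DNase, an enzyme that cuts DNA in dying cells. CG31776, also called dppGalNAcT10, is named as a polypeptide N-acetylgalactosaminyltransferase, a class of enzyme of the Golgi that begins mucin-type O-glycosylation by adding a sugar to serine or threonine. BG642312 carries the name of an expressed sequence tag. No role is given here for CG42828, CG31244, CG32110 and CG17230.

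The sex labels were borne out by their marker genes. Yp1, a yolk protein gene, had group means from 13.04 to 13.33 on the log2 intensity scale in females and from 4.67 to 5.01 in males. Acp26Aa, of the male accessory gland, read 3.43 to 3.91 in females and 11.7 to 12.1 in males, and Mst84Da, of sperm, 4.83 to 5.25 and 12.54 to 13.02. With over-expression Hr96 rose by 1.40 on the log2 scale in females (SE 0.31, n = 3 arrays a group, adjusted p = 0.0333 by limma) and in males (2.09, SE 0.31, adjusted p = 7.4e-04). Both calls were lost in a fit of the compared arrays alone (adjusted p = 0.114 and 0.0910), and leaving out over-expression females 1 or 2, or any 1 of the control females, also ended the female call (0.0621 to 0.172). Hr96 read 9.28, 7.61 and 9.39 in the 3 arrays of over-expression males, so replicate 2 was low. In the arrays labelled knockdown no fall of Hr96 was detected (log2 change 0.17 in females and -0.14 in males, SE 0.31 for each, limma adjusted p = 0.989 and 1.00), so that genotype is named by its label only. The lower quartile of an array lay between 4.38 and 4.64 in log2 intensity, and a gene below or near that level may carry mostly background, so that a fall there may go unseen and the size of a difference against it is uncertain.

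Levels by array showed that 6 of the 7 genes were higher in males and that Drep1 was higher in females. For CG42828, BG642312, CG31244 and CG31776 the female group means lay at or below 5.08, close to or under the lower quartile of the arrays, in all 4 genotypes. For CG32110 they lay between 4.43 and 4.97. The female means of CG17230, from 5.30 to 6.19, lay above that quartile, as did those of Drep1. Male means of Drep1 ran from 4.45 to 4.99, close to that quartile, so its male changes are of uncertain size.

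**Figure D1:**
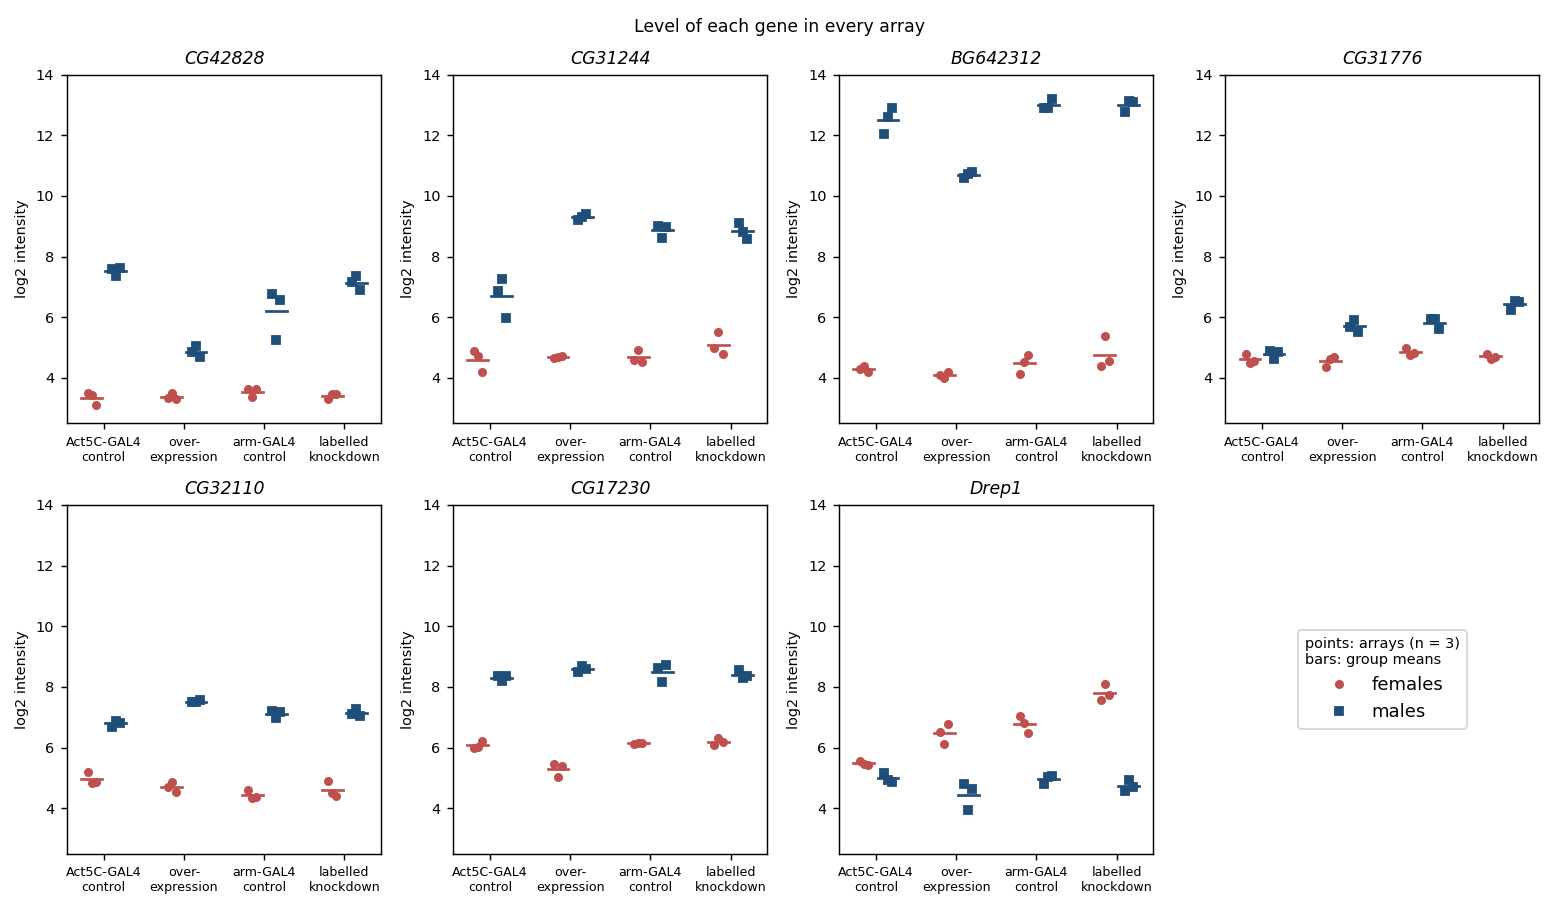
Log2 intensity of each gene in all 24 arrays, by genotype (horizontal axis) and sex. Points are arrays and short bars are means of 3 arrays. Females lie near the low end in most panels, and the male levels of BG642312 drop to 10.70 with over-expression against 12.51 to 12.99 elsewhere.

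CG42828 and BG642312 were male genes with lower male levels under over-expression. CG42828 read 4.85, 5.05 and 4.69 in over-expression males of diet batches 1, 2 and 3, against 7.60, 7.37 and 7.61 in Act5C-GAL4 control males. The arrays of these groups did not overlap, and the log2 change was -2.66 (SE 0.25), a 6.32-fold lower level. In females CG42828 read 3.30 to 3.49 with over-expression and 3.10 to 3.50 in the control, under all arrays' lower quartiles, so a fall in females could go unseen at this signal (log2 change 0.03, SE 0.25). The female change exceeded the male change by 2.69 (SE 0.35), and by 2.38 to 3.12 within the diet batches. Males of the arm-GAL4 lines lay between these groups, at 7.14, 7.37 and 6.91 in the labelled knockdown and 6.77, 5.25 and 6.58 in the control. In the order of male means, Act5C-GAL4 control (7.53), labelled knockdown (7.14), arm-GAL4 control (6.20) and over-expression (4.87), no neighbouring groups overlapped, although replicate 2 of the arm-GAL4 control stood apart from its group at 5.25. The Act5C-GAL4 control and the labelled knockdown all but touched, with a lowest array of 7.374 and a highest of 7.372.

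BG642312 read 10.59, 10.72 and 10.78 in over-expression males and 12.05, 12.59 and 12.88 in Act5C-GAL4 control males. The over-expression males were lower without overlap, by a log2 change of -1.81 (SE 0.22, 3.51-fold). Males of the arm-GAL4 lines had higher means, at 12.99 ± 0.20 (SD, n = 3) in the labelled knockdown and 12.99 ± 0.16 in its control. The labelled knockdown, from 12.76, overlapped the Act5C-GAL4 control, up to 12.88, and over-expression males overlapped no other group. Female values were 3.99 to 4.19 with over-expression and 4.21 to 4.39 in the Act5C-GAL4 control. Both group means lay under the lower quartile of every array, and the log2 change there was -0.21 (SE 0.22). The female change exceeded the male change by 1.60 (SE 0.31), with 1.25, 1.46 and 2.09 in the diet batches, and by 1.83 without Act5C-GAL4 control males replicate 1. The suffix of its probe set (_s_at) marks probes shared by more than 1 transcript, so its signal need not come from 1 transcript alone. The probe set of CG17230 has the same suffix and the same limit.

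Markers of the male accessory gland and ejaculatory duct, and sex-dimorphic fat body genes, were read beside BG642312 and CG42828. Of 34 measured accessory gland and duct genes 26 had a negative change in over-expression males, with a median of -0.25 against 0.03 for all probe sets, and 2 fell while none rose (0.73% of all probe sets fell). These were Acp53C14c (log2 change -0.98, SE 0.22, limma adjusted p = 0.0243) and Obp56f (-0.80, SE 0.18, adjusted p = 0.0253). Acp53C14c lost its call without over-expression males replicate 2 or Act5C-GAL4 control males replicate 1 or 3 (adjusted p = 0.0583 to 0.231), and Obp56f without over-expression males replicate 1, 2 or 3 or control males replicate 3 (0.0573 to 0.236). On the compared arrays alone both calls were lost (0.179 and 0.131). The summed intensity of the 34 genes ranged from 102290 to 108622 in over-expression males and from 107426 to 138631 in their control, and none of them had a mean under the lower quartiles of all arrays in either group. Of 11 measured sex-dimorphic fat body genes 10 had a negative change in the same males, with a median of -0.34, and 2 fell. These were CG11598 (log2 change -3.98, SE 0.20, limma adjusted p = 6.9e-11) and Cyp4d21, a cytochrome P450 gene (-2.76, SE 0.26, adjusted p = 1.2e-06), both known to fall when the list was drawn up. The summed intensity of these 11 genes ranged from 1699 to 2287 in over-expression males and from 2747 to 3501 in their control, without overlap, and 1 gene had a mean under the lower quartiles of all arrays in each group. That sum holds CG11598 and Cyp4d21, with mean intensities of 482 and 436 in control males and 30.1 and 64.6 with over-expression. Its lack of overlap is thus not independent of the fall already known. The part of either list in the male values of BG642312 and CG42828 was not tested.

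CG31244, CG31776 and CG32110 were male genes with higher male levels under over-expression than in the Act5C-GAL4 control. For CG31244 over-expression males read 9.20, 9.30 and 9.39, and control males 6.87, 7.27 and 5.96. The arrays did not overlap, and the log2 change was 2.60 (SE 0.25, 6.06-fold). Males of the other driver read 9.09, 8.81 and 8.59 in the labelled knockdown and 8.86 ± 0.22 (SD, n = 3) in its control, so the Act5C-GAL4 control was the low group. It lay below the arm-GAL4 control by 2.16, while over-expression lay above it by 0.44. Female values of CG31244 were 4.64 to 4.71 with over-expression and 4.18 to 4.90 in the control, near the lower quartile of the arrays (log2 change 0.07, SE 0.25). The female minus the male change was -2.53 (SE 0.35, and -2.08 to -2.90 within diet batches).

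CG31776 was also lowest among males in the Act5C-GAL4 control. In Act5C-GAL4 control males it read 4.89, 4.64 and 4.84, no higher than the 4.78, 4.50 and 4.55 of control females beyond their overlap. Over-expression males read 5.68, 5.90 and 5.51, a log2 change of 0.91 (SE 0.13, 1.88-fold) without overlap. Males of the arm-GAL4 control read 5.93, 5.94 and 5.61 and overlapped over-expression males, and labelled knockdown males were highest at 6.25, 6.52 and 6.50. Among the genes described, CG31776 was the only gene whose female and male arrays overlapped in a genotype, and this was the Act5C-GAL4 control. Females lay between 4.37 and 4.98 in all 12 arrays, with a log2 change of -0.05 (SE 0.13) under over-expression. The difference between the female and the male change was -0.95 (SE 0.19).

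CG32110 read 7.49, 7.49 and 7.55 in over-expression males and 6.69, 6.88 and 6.82 in their control, a log2 change of 0.72 (SE 0.13, 1.64-fold) without overlap. Both arm-GAL4 groups lay between them, at 7.13 ± 0.11 (SD, n = 3) in the labelled knockdown and 7.12 ± 0.12 in the control, and overlapped each other only. In females the values were 4.70, 4.87 and 4.52 with over-expression against 5.21, 4.84 and 4.88, with overlap, and the log2 change was -0.28 (SE 0.13). The female change was below the male change in each diet batch (-1.31, -0.58 and -1.09, mean -0.99, SE 0.19).

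Testis and sperm genes were read beside these 3 genes in males. Of 32 measured testis genes 25 had a positive change in over-expression males, with a median of 0.19 against 0.03 for all probe sets. None passed limma in that comparison, where 1.17% of all probe sets did, and 7 had an unadjusted p under 0.05 (12.8% of all probe sets). Their summed intensity ranged from 89268 to 96844 in over-expression males and from 69789 to 78088 in the Act5C-GAL4 control without overlap, and from 73022 to 92144 in the arm-GAL4 control. In each of these groups 2 of the 32 genes had a mean under the lower quartiles of all arrays. Their part in the higher male levels was not tested.

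CG17230 and Drep1 differed in females as well. CG17230 read 5.47, 5.04 and 5.40 in over-expression females and 5.97, 6.02 and 6.23 in Act5C-GAL4 control females, a log2 change of -0.77 (SE 0.14, 1.71-fold lower) without overlap. The other female groups read 6.19 ± 0.12 (SD, n = 3) and 6.14 ± 0.03 and overlapped the control, so over-expression females stood apart. In males CG17230 read 8.49, 8.70 and 8.60 against 8.36, 8.20 and 8.34, a log2 change of 0.29 (SE 0.14). The 4 male groups were close, from 8.30 to 8.59, and each overlapped its neighbour in the order of means. Over-expression and the Act5C-GAL4 control, at the ends of that order, did not overlap. The difference between the sexes in the change was -1.06 (SE 0.19), with -0.63, -1.47 and -1.08 in the diet batches.

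Drep1 read 6.51, 6.13 and 6.79 in over-expression females and 5.55, 5.47 and 5.41 in their control, a log2 change of 1.00 (SE 0.20, 2.00-fold higher) without overlap. Here too the Act5C-GAL4 control was the low group, since arm-GAL4 control females read 7.03, 6.80 and 6.49, overlapping over-expression, and labelled knockdown females 7.58, 8.09 and 7.72. In males Drep1 read 4.79, 3.93 and 4.62 with over-expression and 5.16, 4.93 and 4.88 in the control, a log2 change of -0.54 (SE 0.20) without overlap. These male levels lay near the lower quartile of the arrays, so the size of the male change is uncertain. That male change was -0.28 without over-expression males replicate 2, the array in which Hr96 was also low. The female change exceeded the male change by 1.54 (SE 0.28, 1.34 to 1.66 within diet batches).

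Genes of the ovary germline, yolk and eggshell were read beside the female values. Of 25 measured genes 24 had a negative change in over-expression females (median -0.67 against -0.04 for all probe sets). None passed limma there, where 0.874% of all probe sets did, and 11 had an unadjusted p under 0.05 (16.4% of all probe sets). Their summed intensity ranged from 32818 to 84902 with over-expression and from 68966 to 99477 in the control, and none of these genes had a mean under the lower quartiles of all arrays. The part of these genes in the lower CG17230 and the higher Drep1 was not tested.

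**Figure D2:**
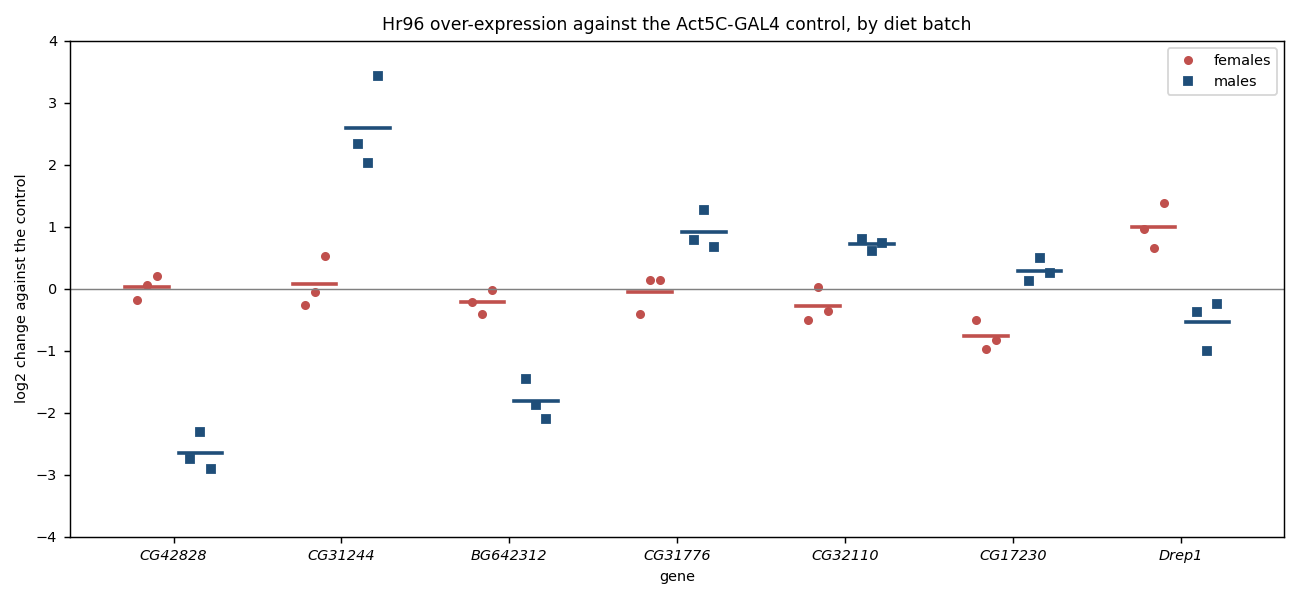
Log2 change of over-expression against the Act5C-GAL4 control (vertical axis) for each gene, in females and males. Points are the differences within 1 diet batch and short bars are the group differences. The male points of CG42828 and BG642312 lie below 0 and those of CG31244, CG31776 and CG32110 above it, while CG17230 and Drep1 show points on opposite sides of 0 in the sexes.

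Among the 7 genes the arrays of over-expression and control did not overlap for 3 in females and for 7 in males (15.7% and 21.4% of all probe sets), a count that the choice of genes had already fixed. Without over-expression males replicate 2, in which Hr96 was lowest, the male log2 changes were -2.75 for CG42828, -1.82 for BG642312, 2.60 for CG31244, 0.81 for CG31776, 0.73 for CG32110 and 0.24 for CG17230.

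The difference between the sexes could be tested in the arm-GAL4 flies, whose arrays took no part in the choice of genes. In the arm-GAL4 control all 7 genes differed between females and males by limma, where 49.5% of all probe sets did. Lower in females were 6 (16.4% of all probe sets) and higher was Drep1 (33.1%). BG642312 read 4.13, 4.53 and 4.77 in females and 12.90, 12.89 and 13.18 in males, a log2 difference of females minus males of -8.52 (SE 0.22, adjusted p = 5.7e-19, n = 3 arrays per sex), of uncertain size because the female level lay near the lower quartile. CG31244 differed by -4.18 (SE 0.25), CG32110 by -2.69 (SE 0.13), CG42828 by -2.65 (SE 0.25), CG17230 by -2.36 (SE 0.14) and CG31776 by -0.97 (SE 0.13, adjusted p = 1.2e-06). The SE of CG42828 pools all groups and is likely too small here, since its SD in these males was 0.83. Drep1 was higher in females by 1.81 (SE 0.20, adjusted p = 5.8e-08), of uncertain size because its male mean of 4.96 lay near the lower quartile. Each difference had the same sign in the 3 diet batches.

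In flies labelled knockdown all 7 were called again in the same directions (48.4% of all probe sets were called, 17.3% lower and 31.2% higher in females). The log2 differences were -8.23 for BG642312 (SE 0.22), -3.75 for CG31244 (SE 0.25), -3.73 for CG42828 (SE 0.25), -2.53 for CG32110 (SE 0.13), -2.21 for CG17230 (SE 0.14), -1.71 for CG31776 (SE 0.13) and 3.08 for Drep1 (SE 0.20). The median difference over all probe sets was 0.19 in control flies and 0.14 in the labelled knockdown, but the spread was wide. From the lower 5% to the upper 95% point it ran from -3.59 to 1.83 in control flies. In the labelled knockdown it ran from -3.59 to 2.02. Only BG642312 and CG31244 lay outside that range in control flies, and BG642312, CG31244, CG42828 and Drep1 in the labelled knockdown.

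The same differences in the Act5C-GAL4 flies, which the choice of genes used, are given as a description. CG42828 differed between females and males by -4.18 in the control and by -1.49 with over-expression, and BG642312 by -8.21 and -6.61. For CG31244 the values were -2.10 and -4.62, for CG31776 -0.18 and -1.13, for CG32110 -1.82 and -2.81, and for CG17230 -2.23 and -3.29. Drep1 was higher in females by 0.48 in the control and by 2.03 with over-expression.

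**Figure D3:**
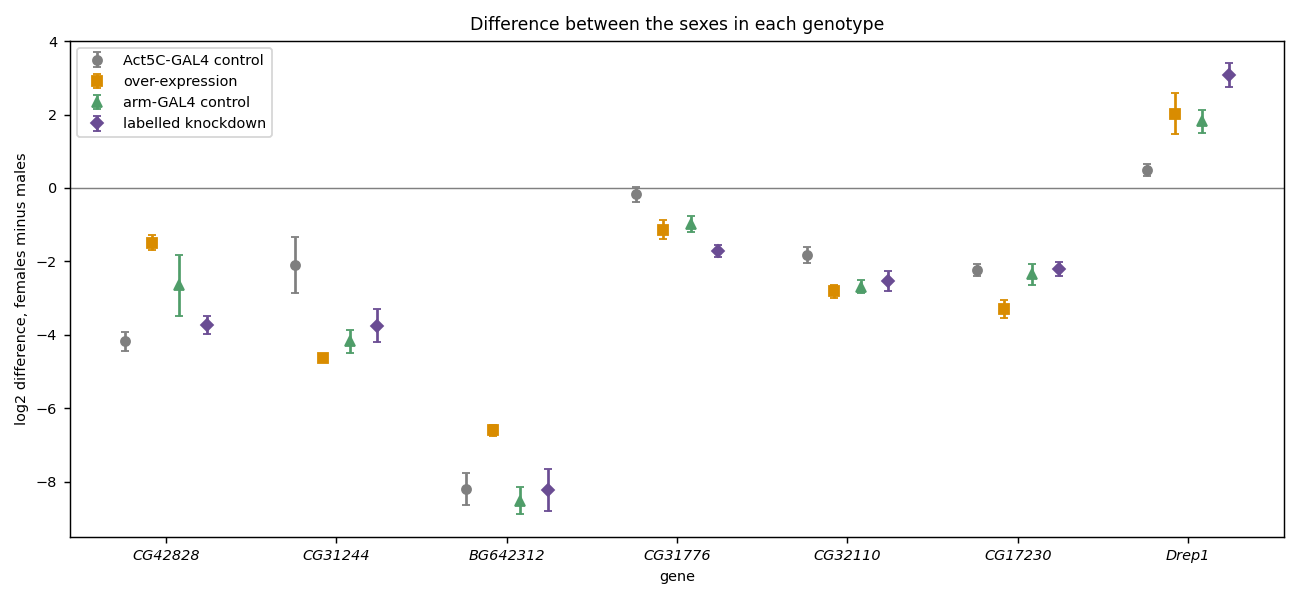
Difference in log2 intensity, females minus males (vertical axis), for each gene in the 4 genotypes. Points are differences of means of 3 arrays and error bars are the root of the summed squared SDs of both sexes. CG31776 in the Act5C-GAL4 control lies at -0.18, and Drep1 lies above 0 in every genotype.

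Labelled knockdown against its arm-GAL4 control gave no called change among the 7 genes. Limma called 0 of 7 in females (0.0213% of all probe sets) and 0 of 7 in males (0.0266%), with an unadjusted p under 0.05 for 1 and 2 of them (4.24% and 2.18% of all probe sets). The difference between the female and the male change was called for 0 of 7 (0.032% of all probe sets), with an unadjusted p under 0.05 for 3 (2.73% of all probe sets). Drep1 in females had a log2 change of 1.02 (SE 0.20, 95% confidence interval 0.61 to 1.44, adjusted p = 0.120), and its arrays did not overlap, the only such gene of the 7 (9.05% of all probe sets). In males its change was -0.24 (SE 0.20, -0.66 to 0.18, adjusted p = 1.00). The ovary genes above had a positive change in 23 of 25 in the same females (median 0.41, 0 called by limma, 1 with an unadjusted p under 0.05), and their summed intensity ranged from 89364 to 107872, against 49995 to 93944 in the control. Their part in the Drep1 value was not tested.

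In males labelled knockdown 2 of the 7 genes had arrays that did not overlap the control (5.8% of all probe sets). CG31776 had a log2 change of 0.60 (SE 0.13, 95% confidence interval 0.32 to 0.87, adjusted p = 0.274) and was higher in 3 of 3 diet batches. CG42828 had a log2 change of 0.94 (SE 0.25, 0.43 to 1.45, adjusted p = 0.828), with 0.38, 2.12 and 0.33 in the batches, and 0.47 without arm-GAL4 control males replicate 2. Its SD was 0.83 in these control males and 0.23 in labelled knockdown males, against 0.08 to 0.21 in the female groups. The SE pools all groups, so this interval is likely too narrow for the groups compared. BG642312, CG31244, CG32110 and CG17230 lay within 0.10 of their control on the log2 scale in males. The widest 95% confidence interval among these was that of CG31244, from -0.55 to 0.49, so changes within it are not excluded. It does not mark what limma could call with 3 arrays in a group, since the larger changes of CG31776 and CG42828 were not called. Accessory gland genes in these males had a positive change in 31 of 34 (median 0.18, 0 called by limma, 4 with an unadjusted p under 0.05), while BG642312 had a change of 7.1e-04.

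**Figure D4:**
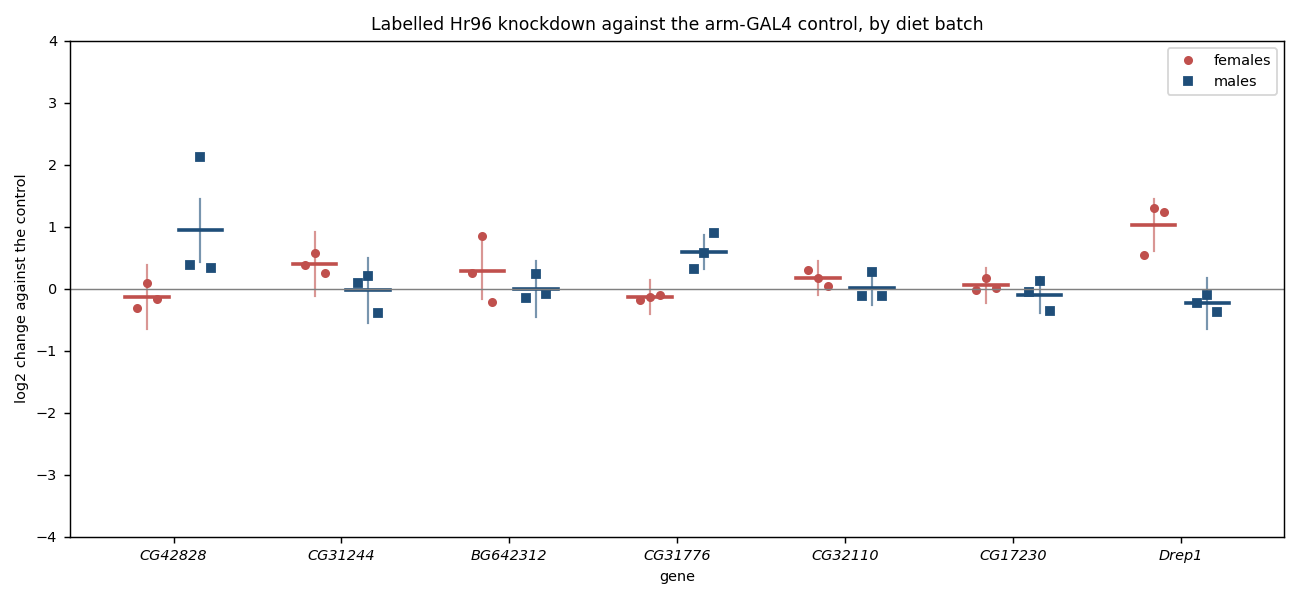
Log2 change of the labelled knockdown against the arm-GAL4 control (vertical axis) for each gene in females and males. Points are differences within 1 diet batch, short bars are group differences and thin lines are 95% confidence intervals from limma. Drep1 in females lies at 1.02 and CG31776 in males at 0.60, and neither passed the adjusted test.

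Genes related to Drep1 and CG31776 gave no calls with over-expression or in the labelled knockdown. Of 17 measured genes of the DNA fragmentation factor family and apoptosis, 0 passed limma with over-expression in females, in males or in the difference between the sexes (0.874%, 1.17% and 0.165% of all probe sets), with an unadjusted p under 0.05 for 5, 1 and 2 (16.4%, 12.8% and 14.5% of all probe sets). The median difference between the sexes in the change was 0.06, against -0.07 for all probe sets. Of 13 other N-acetylgalactosaminyltransferase genes 0 passed in the same 3 comparisons, with an unadjusted p under 0.05 for 3, 3 and 1, and the median was 0.18. In flies labelled knockdown 0 members of either list passed in females or in males (unadjusted p under 0.05 for 2 and 1 of the apoptosis genes and for 1 and 2 of the transferases).

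Neighbours on the chromosome were read because a member and the genes next to it share their genomic surroundings. Among the 14 nearest measured genes on either side, limma called 1 with over-expression in females and 0 in males (0.874% and 1.17% of all probe sets), and 0 in the difference between the sexes (0.165%). An unadjusted p under 0.05 was found for 6, 2 and 3 of them (16.4%, 12.8% and 14.5% of all probe sets). The call was Aptx beside CG31244, which encodes aprataxin, a DNA repair enzyme (log2 change 0.57, SE 0.13, adjusted p = 0.0360). Leaving out over-expression females 1 or 2, or control females 2 or 3, ended the call (adjusted p = 0.0926 to 0.209), and on the compared arrays alone (0.272). CG42827, next to CG42828, had the same pattern of sexes, at 3.39 in Act5C-GAL4 control females and 8.62 in control males. Its male change with over-expression was -0.37 (SE 0.16, adjusted p = 0.337), against -2.66 for CG42828. Pgant4, another N-acetylgalactosaminyltransferase gene and the neighbour of CG31776, had a change of 0.23 in males (SE 0.31, adjusted p = 0.782) and 0.84 in females (SE 0.31, adjusted p = 0.194). CG17230 overlaps sals, a regulator of actin filament length in muscle, and PGRP-LB, an amidase that breaks down bacterial peptidoglycan, in the gene table, so signal of overlapping transcripts could be shared. Their female changes with over-expression were 0.57 (SE 0.20, adjusted p = 0.185) and 0.35 (SE 0.37, adjusted p = 0.691), beside -0.77 for CG17230, and that of PGRP-LB was -0.02 without over-expression females replicate 2. CG32110 likewise overlaps Sap130, whose male change was -0.48 (SE 0.14, adjusted p = 0.119) against 0.72 for CG32110. CG13299, beside BG642312, had a female change of -0.86 (SE 0.33, adjusted p = 0.214), which passed at -1.48 without over-expression females replicate 1 (adjusted p = 0.00240), and sals passed without replicate 3 (0.78, adjusted p = 0.0380).

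The genes with the most similar levels over all 24 arrays were found by Pearson correlation, as a description in which the difference between the sexes weighs most. The 2 closest for each member correlated at 0.89 to 0.99. For BG642312 they were CG42789 (0.99) and Spn77Bc, a serpin gene (0.99), whose male changes with over-expression were -0.69 and -1.02 beside the -1.81 of BG642312. For CG31244 they were CG7329 (0.98) and yip3 (0.97), with male changes of 1.02 and 1.04 and female changes of -2.8e-04 and -0.0035. CG31776 was closest to Sdic3 (0.90), a gene of the sperm dynein family whose near-identical copies may share its signal, and to yip3 (0.89). CG42828 was closest to CG18301 (0.96, male change -1.34) and CG2663 (0.95, male change -0.85). CG17230 was closest to CG3552 and CG1971 (0.99 for each), with female changes of -0.32 and -0.49. CG32110 was closest to CG14282 and CG3222 (0.99 for each), with male changes of 0.37 and 0.42. Drep1 was closest to Rbm13 (0.93, female change 0.77) and CG1407 (0.93, female change -0.06).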

How the data were processed

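The authors deposited linear intensity values, made with RMA per the submitters' processing notes. RMA corrects background, normalizes arrays and summarises probes, and it compresses large differences. For its version and any later scaling: not given in the sources used here. Array medians were 52.9 to 65.5, and log2 was taken with no pseudocount.

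Of 18952 probe sets 183 controls were left out. Gene names came from the platform annotation, and neighbours and other names from the RefSeq Release 6 gene table, with no coordinates given, since the annotation states no assembly. All 24 arrays entered 1 limma 3.58.1 fit in R 4.3.3 (1 mean per group, 16 residual degrees of freedom), adjusted by Benjamini-Hochberg over 18769 probe sets, threshold 0.05, two-sided. SEs thus rest on 1 spread per probe set over all groups. The fit was tested on simulated data. Plots used matplotlib 3.10.9.

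The members, the gene lists and the tests were chosen with earlier results of these data known. Named besides the members were Hr96, the sex markers, the 2 most correlated genes, the nearest measured gene on each side, and up to 4 called genes of each list. The lists were DNA fragmentation factor and apoptosis, N-acetylgalactosaminyltransferases, male accessory gland, testis, ovary and sex-dimorphic fat body.

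The labels call the replicates biological, and their numbers mark shared diet batches, so they pair the samples. The 12 correlations of their deviations from group means ran from -0.07 to 0.57, with 9 over 0.1. Alternatives were the batch as a block, a fit of only the compared arrays, a floor of 5 on mean log2 intensity, a median shift, quantile normalization, eBayes with trend and robust, and the omission of 1 array at a time. The number of arrays limits the precision.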

Additional observations from a re-analysis of the deposited data

Results flagged for a closer look

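Drep1 and CG17230 stood out because every diet batch moved one way in females and the opposite way in males with over-expression, by a log2 difference of females minus males of 1.54 for Drep1 and -1.06 for CG17230. Both were chosen on this contrast, so the difference was not tested. In the labelled knockdown, whose arrays the choice did not use, every batch was likewise opposite between the sexes for Drep1 (1.26) and CG31776 (-0.74), but the difference did not pass limma (adjusted p = 0.442 and 0.999). Male levels of Drep1 lay near the lower quartile of the arrays, so the sizes of its differences are uncertain.

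Of 11 measured sex-dimorphic fat body genes 2 had a called difference between the female and the male change with over-expression by limma (0.165% of all probe sets), CG11598 (4.08, SE 0.28, adjusted p = 4.1e-08) and Cyp4d21 (2.43, SE 0.36, adjusted p = 0.00201). This list was drawn up with the fall of both genes in males already known, so its count is not independent evidence.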

How the results depend on the processing

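The 7 genes kept their tested calls under every alternative run in which they were tested: 7 of 7 differed between the sexes in each arm-GAL4 genotype, and 0 of 7 passed in the labelled knockdown. A floor of 5 on mean log2 intensity removed CG42828, and the other 6 genes kept their calls. The described changes of the 7 genes stayed within the spread between replicates in 289 alternative values and left it in 2: BG642312 without Act5C-GAL4 control males replicate 1 (1.83), and the male change of CG32110, 0.82 with quantile normalization. Much of this was fixed in advance. The block, the fit of only the compared arrays, the floor and eBayes with trend leave a difference of group means unchanged. Leaving out 1 of 3 arrays cannot move a difference between 2 groups beyond that spread. The count of 289 is therefore no measure of robustness. Counts over all probe sets moved more. For over-expression in females, in males and in the difference between the sexes they were 164, 219 and 31, against 383, 358 and 47 with diet batch as a replicate block and 12, 101 and 14 on the compared arrays alone. Leaving out 1 array gave 36 to 723, 90 to 193 and 16 to 66. The female count was 75, 48 and 723 without over-expression females 1, 2 or 3, and 319, 53 and 36 without their controls 1, 2 or 3. The male count was 134 without over-expression males 2 and 90 without control males 3, and the difference gave 18 and 66 without over-expression females 1 or 3, 16 without over-expression males 1 or 2 or control males 3, and 19 without control females 3. For the labelled knockdown in females and males the counts were 4 and 5, against 7 and 8 with the block, 1 in females on the compared arrays alone, and 4 to 8 and 5 to 8 without 1 array (8 and 7 without arm-GAL4 control females 1 or 3, 8 without labelled knockdown males 2). Among named genes the block changed 1 call, that of tut, a germline gene, whose over-expression difference between the sexes passed with it (-1.33, limma adjusted p = 0.0349). Female levels near the lower quartile limit what can be seen in females, and male levels of Drep1 near it limit what can be seen for that gene in males.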

Other observations

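Likeness was also computed within the 12 arrays of the sex in which a gene was higher, where the difference between the sexes plays no part. This was chosen after the values were seen, and the correlations share the same arrays. Those arrays include the over-expression and Act5C-GAL4 control arrays on which the members were chosen. A match can thus rest on that same contrast, and nothing further is read from it. In males BG642312 was closest to CG11598 (Pearson r = 0.99) and Obp57a, an odorant-binding protein gene (0.98), which read 8.88 and 7.14 in Act5C-GAL4 control males and 4.89 and 4.15 with over-expression. Obp57a was lower in females too, at 5.45 with over-expression against 7.47 in the control, while CG11598 read 4.35 and 4.25 there. In males CG31244 was closest to Eip63E (0.98), a cyclin-dependent kinase gene. Eip63E read 6.74 in Act5C-GAL4 control males against 7.76 to 7.91 in the other male groups, and 6.96 against 8.53 to 8.58 in females, so the Act5C-GAL4 control was low in both sexes. CG17470 was among the 2 closest genes to CG31244 in males (0.95) and the closest to Drep1 in females (0.98), and it too read lowest in the Act5C-GAL4 control, at 11.1 in males and 5.81 in females.

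Of the 32 measured genes of the testis list 1 was called in over-expression females (0.874% of all probe sets were called). This gene, tut, fell by 1.86 on the log2 scale (SE 0.21, limma adjusted p = 3.2e-05), reading 5.45 there, against 7.30 in the control. Act5C-GAL4 control males read 5.88, so in control flies tut was higher in females than in males.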
